A study of Mus musculus with 18 samples.

Results

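The genes described here are Trp53, which encodes the tumour suppressor p53, and 31 genes known as its transcriptional targets or close partners, 32 of the 35275 genes in the deposited count table. They were taken by name from a list that was chosen with earlier results of these data known, and all 32 were found. The study compared liver RNA of wild type mice (WT) and of mice that lack NRF2 (KO). NRF2 activates genes that defend cells against oxidants and toxic compounds. All mice had received diethylnitrosamine (DEN), a liver carcinogen that damages DNA once hepatocytes have metabolised it. There were 6 groups of 3 libraries, namely WT and KO at 2 days (2D), at 4 weeks (4W) and at 36 weeks (36W) after DEN. All 18 libraries came from a mixed B6;129P2 background, and no untreated group was used here. The labels give the time after DEN but no age or sex, so time after DEN and age of the mouse cannot be told apart. They also do not say that each library came from a separate mouse, so the p-values measure the spread between libraries, which may be technical. The source label reads tumor at 2D and tissue at 4W and 36W, and the sample codes in the titles begin with B at 2D and with A at 4W and 36W. Whatever those labels and codes stand for cannot be told apart from the 2D time point.

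p53 is held at a low level in unstressed cells, because the ubiquitin ligase MDM2 marks it for degradation. DNA damage activates kinases that modify p53 and free it from MDM2, so p53 accumulates as a protein and binds paired response elements in DNA, which raises transcription of genes that halt the cell cycle, repair DNA, change metabolism or trigger cell death. Mdm2 is itself a target, which closes a negative feedback loop, and in the liver this response follows the DNA adducts left by carcinogens such as DEN.

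The sequence that p53 binds was looked for in the promoter windows of the members, since the members are known as genes that p53 binds and activates. RefSeq windows of build GRCm38.p6, from 250 bases before to 50 bases after each listed start, were matched for 23 of the 32 members. Ddb2, Perp, Pmaip1, Ptp4a3, Rrm2b, Tnfrsf10b, Trp53inp1, Xpc and Zmat3 were not matched. The windows were searched on both strands for the p53 response element consensus, which is 2 adjacent decamers with their 4-base cores intact, here with at most 2 mismatches elsewhere and no spacer. It was present for 2 of the 23 members, Cdkn1a and Zfp365, which is 8.7%, and for 51 of 27025 genes with a window, which is 0.189%. The 250 bases before the listed start of each are printed on the gene's strand with the element in capitals, because these were the members whose windows held it.
Cdkn1a, chr17:29090729-29090978, plus strand: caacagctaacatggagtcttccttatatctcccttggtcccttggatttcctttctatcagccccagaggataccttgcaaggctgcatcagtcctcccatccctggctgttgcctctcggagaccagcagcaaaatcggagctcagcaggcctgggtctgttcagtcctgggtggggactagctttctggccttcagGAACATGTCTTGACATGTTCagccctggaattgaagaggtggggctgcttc
Zfp365, chr10:67912663-67912912, minus strand: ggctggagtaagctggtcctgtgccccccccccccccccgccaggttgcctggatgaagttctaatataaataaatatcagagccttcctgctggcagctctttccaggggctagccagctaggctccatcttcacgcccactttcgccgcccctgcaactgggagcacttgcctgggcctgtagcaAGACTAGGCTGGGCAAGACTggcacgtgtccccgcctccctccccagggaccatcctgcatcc

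The Cdkn1a element begins 51 bases before the listed start and the Zfp365 element 63 bases before it. The Cdkn1a element had 1 mismatch and the Zfp365 element 2. Cdkn1a has 2 windows in the table, and the element lies in the window of the upstream start. A wider search, added after the first and allowing at most 3 mismatches and a spacer of at most 1 base, found an element for 6 of the 23 members, which is 26.1%, and for 332 genes, which is 1.23%. The 6 elements are printed on the gene's strand with their cores in capitals, to show how the members compare.
Cdkn1a, chr17:29090928-29090947: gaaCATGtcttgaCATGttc
Zfp365, chr10:67912706-67912725: agaCTAGgctgggCAAGact
Trp53, chr11:69580284-69580303: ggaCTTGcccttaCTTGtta
Aen, chr7:78895937-78895956: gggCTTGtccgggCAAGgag
Bbc3, chr7:16309486-16309505: ctgCAAGccccgaCTTGtcc
Bax, chr7:45467079-45467099: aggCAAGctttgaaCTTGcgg

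The core CATG, present in both decamers of Cdkn1a, is in neither decamer of the other 5. A match describes letters in these windows and is no measured binding, and elements in introns or farther upstream lie outside them.

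The libraries held 15.3 to 24.2 M counts, and 3 counts, the level that a count of 0 allows, equal 0.124 to 0.196 CPM (a gene's counts per 1000000 counts of its library). Floors cover counting error only. Nfe2l2, the gene of NRF2, was lower in every KO library than in every WT library of its time: WT ranged over 70.2 to 76.2 CPM at 2D, 90.03 to 109 CPM at 4W and 105 to 127 CPM at 36W, against KO ranges of 43.3 to 67.8, 54.03 to 56.3 and 37.8 to 43.0 CPM. A count per gene does not show which part of the transcript remains. Of 9 hepatocyte markers measured, including albumin, the summed level was 86160 to 248934 CPM over the 18 libraries, so all held abundant hepatocyte RNA. WT 2D replicate 3 stood apart: its summed stellate and fibroblast markers reached 5841 CPM against 923.5 to 1484 CPM in the other 2D libraries, and its bile duct markers 480.4 CPM against 101.2 to 132.8 CPM. Member counts that use WT at 2D, and list counts between genotypes at 2D, are therefore also given without it. Levels below are CPM scaled between libraries by edgeR's TMM method, listed by replicate number, and a member is called when its edgeR adjusted p over all genes tested was under 0.05. In bulk liver RNA, fewer cells of a type and less RNA per cell cannot be told apart.

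**Figure D1:**
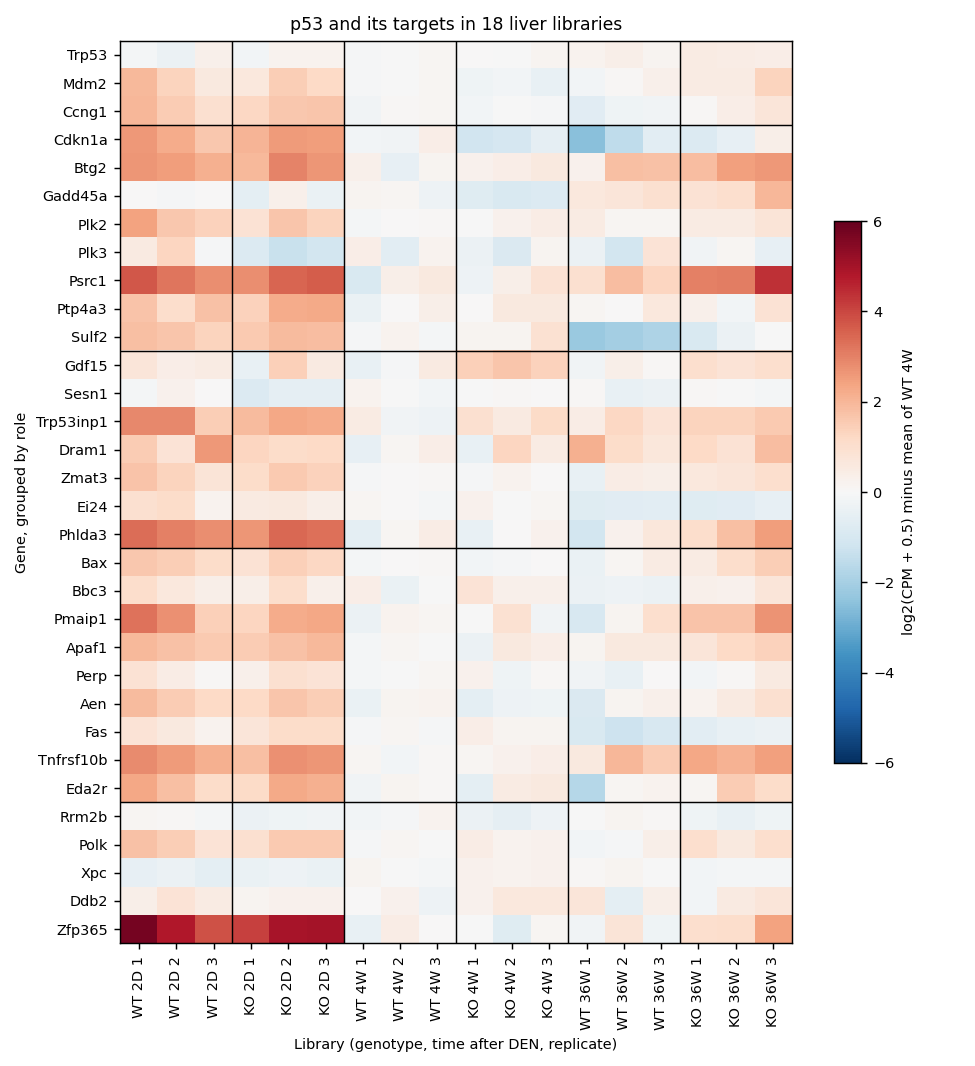
Heat map of the 32 genes (rows, grouped by role, with lines between roles) in the 18 libraries (columns, 3 per group). Colour is log2(CPM + 0.5) minus the gene's mean over the 3 WT 4W libraries; most rows are red in all 6 libraries of 2D, Trp53 and Rrm2b stay pale, and Zfp365 has the deepest red.

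The comparison of 2D with 4W asks how the p53 genes stood in the days after DEN, against the same genotype at the earliest later time. In WT, 23 of 32 members were higher at 2D (71.9%) and 1 was lower, where 18.6% of all 14877 genes tested were called higher and 19.1% lower. In KO, 21 members were higher (65.6%) and 2 were lower, where 10.8% of all genes were called higher and 13.5% lower. The median log2 fold change of the members was 1.49 in WT and 1.26 in KO, beside 0.05 and -0.02 over all genes. The members were chosen with earlier results of these data known, so these shares and medians are no independent test of them. The background depended on the scaling. With library size alone, 32.4% of all genes were called higher and 10.3% lower in WT, 18.3% and 7.42% in KO, and the medians over all genes were 0.33 and 0.18. The members then gave 25 higher and 0 lower with a median of 1.77 in WT, and 23 higher and 1 lower with a median of 1.48 in KO. The WT and KO comparisons contrast different libraries but come from 1 fit of all 18 libraries, so their calls are not independent. Without WT 2D replicate 3 the WT comparison called 24 members in all, the same number as with it.

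Trp53 itself was not called. It stood at 25.4, 21.6 and 34.3 CPM in WT and 24.4, 31.4 and 31.9 CPM in KO at 2D, beside 25.8, 26.9 and 29.8 CPM in WT and 28.04, 27.3 and 30.5 CPM in KO at 4W. The groups overlap, and the log2 fold changes were -0.02 (SE 0.15) in WT and 0.03 (SE 0.15) in KO. RNA levels do not report on p53 protein. Both feedback genes rose. Mdm2 went from 37.4, 39.1 and 43.6 CPM at 4W to 153, 102 and 59.4 CPM at 2D in WT, a log2 fold change of 1.39 (SE 0.30, edgeR adjusted p = 0.00194). In KO it went from 33.7, 36.0 and 29.2 CPM to 62.9, 111 and 93.0 CPM (1.43, SE 0.30, edgeR adjusted p = 0.00272). Every 2D library lay above every 4W library of its genotype. Ccng1 encodes cyclin G1, which brings a phosphatase to MDM2. It rose by 1.54 (SE 0.23) in WT and 1.61 (SE 0.23) in KO on the log2 scale, from 55.1 to 68.6 CPM at 4W to 125 to 251 CPM at 2D over both genotypes.

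Of the 8 genes of arrest and growth control, 6 rose in each genotype: Cdkn1a, Btg2, Plk2, Psrc1, Ptp4a3 and Sulf2. Cdkn1a encodes p21, the inhibitor of cyclin-dependent kinases through which p53 halts the cell cycle. Its WT level was 485, 382 and 246 CPM at 2D and 70.9, 68.4 and 106 CPM at 4W, a log2 fold change of 2.18 (SE 0.41, edgeR adjusted p = 0.000698). The KO level was 327, 466 and 459 CPM at 2D and 36.2, 39.8 and 54.2 CPM at 4W, a log2 fold change of 3.27 (SE 0.43, edgeR adjusted p = 7.25e-05). The groups are far apart in both genotypes, and the 2D levels of WT and KO overlap while the 4W levels do not. Per kilobase of transcript Cdkn1a had the highest level of the 32 members at 2D, with a mean of 194.2 CPM per kb in WT and 218.5 CPM per kb in KO.

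Psrc1, a microtubule-binding protein of the mitotic spindle, was at 44.1, 30.7 and 22.7 CPM at 2D and 1.30, 3.73 and 4.49 CPM at 4W in WT, a log2 fold change of 3.36 (SE 0.49). In KO it was at 22.7, 36.8 and 40.6 CPM against 2.24, 3.80 and 5.68 CPM, with a log2 fold change of 3.09 (SE 0.48). Every 2D library was several-fold above every 4W library. Btg2, an antiproliferative regulator of transcription and RNA decay, was at 160, 146 and 111 CPM against 31.2, 17.7 and 28.5 CPM in WT (2.43, SE 0.36). The KO values were 96.7, 198 and 161 CPM against 30.5, 33.3 and 38.2 CPM (2.16, SE 0.36). Sulf2, which trims sulfate groups from heparan sulfate chains, rose by 1.61 (SE 0.23) and 1.33 (SE 0.23) in WT and KO. The stress kinase gene Plk2 rose by 1.90 (SE 0.24) and 1.11 (SE 0.24), and the phosphatase gene Ptp4a3 by 1.56 (SE 0.31) and 1.64 (SE 0.31). Gadd45a, which encodes a stress protein that binds PCNA, was not called, with log2 fold changes of -0.05 in WT and 0.81 in KO and levels of 1.41 to 3.89 CPM over these groups. Plk3, another stress kinase gene, was not called either, at 0.64 (SE 0.43) in WT and -0.80 (SE 0.44) in KO.

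Of the 7 genes of stress hormone and metabolic control, 5 rose in WT and 3 in KO. Phlda3, which competes with AKT for membrane lipids and so restrains it, was at 95.0, 75.3 and 64.7 CPM at 2D and 5.76, 9.77 and 12.4 CPM at 4W in WT, a log2 fold change of 3.08 (SE 0.44). In KO it was at 58.9, 102 and 93.1 CPM against 6.42, 9.17 and 10.8 CPM, with a log2 fold change of 3.27 (SE 0.44). No 2D library came near the 4W range. Trp53inp1, a stress protein that assists p53 and takes part in autophagy, was at 455, 460 and 175 CPM at 2D and 88.2, 54.0 and 50.3 CPM at 4W in WT (2.5, SE 0.33). In KO it was at 231, 311 and 297 CPM against 121, 91.9 and 138 CPM (1.26, SE 0.31). Its KO level was the higher at 4W and, except for WT replicate 3, the lower at 2D. Zmat3, an RNA-binding zinc finger protein, rose by 1.36 (SE 0.24) in WT and 1.34 (SE 0.24) in KO.

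Ei24, an endoplasmic reticulum membrane protein, rose in WT by 0.79 (SE 0.17) and had a log2 fold change of 0.39 in KO that was not called (edgeR adjusted p = 0.108). Dram1, a lysosomal protein of autophagy, rose in WT by 2.13 (SE 0.59, edgeR adjusted p = 0.00997), with 4.76, 2.75 and 10.8 CPM at 2D against 0.815, 1.48 and 1.89 CPM at 4W. WT replicate 3 was the high library, and without it the log2 fold change was 1.45 (edgeR adjusted p = 0.0603). In KO it was 0.69 and not called. Sesn1, whose protein restrains the growth kinase mTORC1, fell in KO by 0.68 on the log2 scale (SE 0.16, edgeR adjusted p = 0.00516) and stood at 0.05 in WT. Scaled by library size alone, the KO fall was 0.47 with an edgeR adjusted p of 0.0657. Gdf15, a secreted stress hormone that curbs food intake through the hindbrain, was not called, at 0.53 (SE 0.35) in WT and -0.81 (SE 0.34) in KO.

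Of the 9 cell death genes, 8 rose in each genotype. In WT these were Bax, Bbc3, Pmaip1, Apaf1, Aen, Fas, Tnfrsf10b and Eda2r, and in KO Perp was called in place of Bbc3. Pmaip1 encodes NOXA, a sensitiser of the mitochondrial death pathway. It was at 18.5, 12.8 and 4.96 CPM at 2D and 1.09, 1.84 and 1.69 CPM at 4W in WT (2.97, SE 0.62), and at 4.35, 9.001 and 9.51 CPM against 1.496, 3.25 and 1.26 CPM in KO (1.92, SE 0.59). The KO call was lost without KO 2D replicate 2 or 3 or KO 4W replicate 1 or 3, with edgeR adjusted p up to 0.107. Tnfrsf10b, the mouse receptor for the death ligand TRAIL, was at 22.5, 18.2 and 13.7 CPM against 2.99, 2.30 and 2.80 CPM in WT (2.75, SE 0.34). In KO it was at 10.6, 21.1 and 19.5 CPM against 2.99, 3.31 and 3.67 CPM (2.36, SE 0.33). The lowest 2D library was still well above the highest 4W library.

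Aen, a nuclease gene of apoptosis, was at 81.4, 62.3 and 49.1 CPM at 2D and 15.9, 23.8 and 25 CPM at 4W in WT (1.57, SE 0.29), and at 49.9, 67.8 and 60.5 CPM against 13.7, 17.3 and 17.5 CPM in KO (1.88, SE 0.29). Bax, the pore former of the outer mitochondrial membrane, rose by 1.42 (SE 0.24) in WT and 1.26 (SE 0.24) in KO. Apaf1, the scaffold of the apoptosome, rose by 1.83 (SE 0.24) and 1.56 (SE 0.23), and the receptor gene Eda2r by 1.90 (SE 0.51) and 1.75 (SE 0.51). The smallest changes were those of the death receptor gene Fas, at 0.56 (SE 0.16) and 0.74 (SE 0.16), and of Bbc3 and Perp. Bbc3, the gene of PUMA, rose by 0.70 (SE 0.25, edgeR adjusted p = 0.0383) in WT and stood at 0.10 in KO. Perp, a desmosome-associated membrane protein, stood at 0.50 (SE 0.23, edgeR adjusted p = 0.0963) in WT and rose by 0.68 (SE 0.23, edgeR adjusted p = 0.0397) in KO. The Bbc3 call was lost without any of WT 2D replicate 1 or 2 and WT 4W replicate 2 or 3 (edgeR adjusted p up to 0.162), and the Perp call in 5 of the fits that left out a library (up to 0.143). Fas was lost in WT without WT 2D replicate 1 (edgeR adjusted p = 0.0592), and Eda2r in KO without KO 2D replicate 2 or 3 or KO 4W replicate 1 (up to 0.0961).

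Of the 5 genes of DNA repair and replication stress, 2 rose and 1 fell in each genotype. Zfp365, a zinc finger gene linked to replication stress, showed the largest change of the list. It had 42.9, 22.4 and 10.99 CPM at 2D in WT and 0.109, 0.614 and 0.326 CPM at 4W, and in KO 13.6, 24.7 and 25.7 CPM against 0.312, 0 and 0.402 CPM. These are 237 to 956 reads per library at 2D and 0 to 12 reads at 4W. The fitted log2 fold changes were 6.14 (SE 0.78, edgeR adjusted p = 2.84e-05) and 6.48 (SE 0.82, edgeR adjusted p = 5.59e-05), and their size is uncertain because the 4W counts lie near the floor. Polk, a polymerase that copies past bulky adducts, rose by 1.44 (SE 0.23) in WT and 1.12 (SE 0.23) in KO.

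Xpc, which detects distorted DNA for nucleotide excision repair, was the one member that fell in both genotypes. Its WT level was 15.9, 17.9 and 15.1 CPM at 2D and 25.3, 21.9 and 20.8 CPM at 4W (-0.48, SE 0.10, edgeR adjusted p = 0.00194). In KO it was 16.8, 17.9 and 17.2 CPM against 27.1, 26.4 and 27.4 CPM (-0.64, SE 0.10, edgeR adjusted p = 0.00039). With library size alone as the scaling the WT value was -0.19 and not called (edgeR adjusted p = 0.195). Ddb2, another damage sensor of excision repair, stood at 0.61 (SE 0.33) in WT and -0.31 (SE 0.32) in KO. Rrm2b, a ribonucleotide reductase subunit that supplies nucleotides for repair, stood at 0.01 and 0.14. Neither was called.

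**Figure D2:**
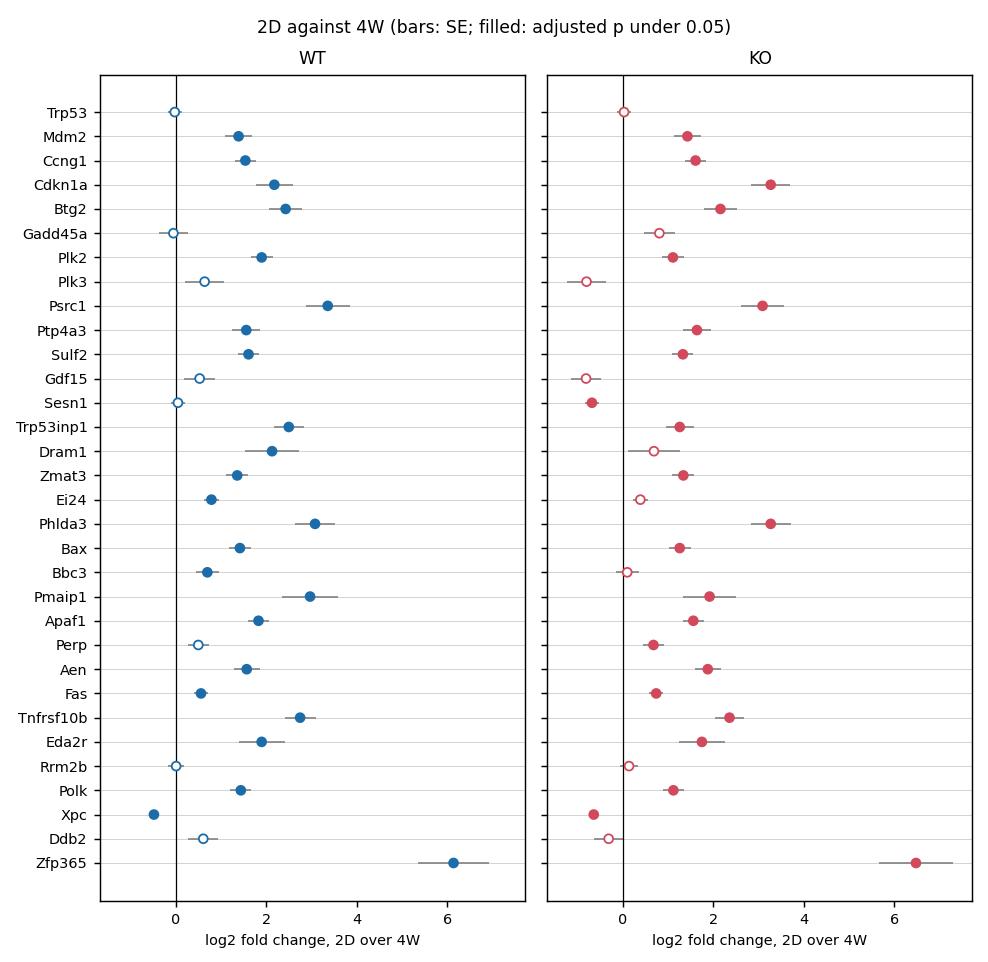
Log2 fold change of 2D over 4W (horizontal axis) for each of the 32 genes in WT (left) and KO (right); points are edgeR estimates, bars are their SE, and filled points had an adjusted p under 0.05. Zfp365 lies farthest right at 6.14 and 6.48, Trp53 lies at zero, and Xpc is filled on the left in both panels.

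Markers of other cells also moved between 2D and 4W. Of 6 neutrophil markers tested, 5 rose in WT and 2 in KO, and their summed level in WT was 22.8 to 23.6 CPM at 2D against 0.456 to 1.59 CPM at 4W. The KO sums were 9.95 to 23.9 CPM and 4.11 to 8.84 CPM. Ly6g was at 0 in all WT 4W libraries. Of 10 stellate and fibroblast markers, 7 rose and 1 fell in WT and 2 rose in KO, and without WT 2D replicate 3 the number called in WT was 2. Of 7 bile duct markers, 5 rose in WT and 0 without that replicate, and 0 in KO (1 at an unadjusted p under 0.05, 0 by DESeq2 and by limma-voom). Of 8 sinusoidal endothelial markers, 5 rose in WT and 1 fell in KO. Hepatocyte markers gave 1 higher and 3 lower of 9 in WT and 2 lower in KO. Among the remaining lists, 1 macrophage marker rose in WT, 1 B and T cell marker rose in KO, and 1 erythroid marker fell in each. The part of these cells in the member changes was not tested.

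Whether loss of NRF2 altered the genes in these days was asked by setting KO beside WT at 2D. edgeR called 0 of 32 members, where 0.0431% of 13913 genes were higher in KO and 0.122% lower (0.0144% and 0.194% with library size alone). At an unadjusted p under 0.05 there were 2 of 32, Plk3 and Sesn1, where the share over all genes was 16.07%. DESeq2 called these same 2 members and 757 genes in all, and limma-voom called 0 members and 7 genes in all. Member log2 fold changes had a median of -0.07, beside -0.04 over all genes. The groups did not overlap for 0 members higher in KO, where the share over all genes was 12.8%, and for 4 members lower in KO, 12.5% against 10% over all genes.

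Plk3 had the largest difference. Its WT libraries were at 58.2, 99.9 and 37.7 CPM and its KO libraries at 22.3, 15.4 and 18.3 CPM, with a log2 fold change of -1.83 (SE 0.36, edgeR adjusted p = 0.101). Sesn1 stood at 14.9, 19.3 and 16.5 CPM in WT and 8.84, 11.1 and 10.97 CPM in KO (-0.73, SE 0.16, edgeR adjusted p = 0.117). All WT libraries were above all KO libraries for both genes. Rrm2b and Ddb2 were the other members without overlap, at -0.34 (SE 0.20) and -0.37 (SE 0.22). Over the remaining members the estimates ran from -0.71 for Dram1 to 0.47 for Ptp4a3.

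WT replicate 3 weighed on this comparison: it was the lowest of the 6 libraries for 15 of the 32 members, and WT replicate 1 the highest for 15. Without replicate 3, edgeR called 4 members lower in KO, namely Plk3 (-2.10, edgeR adjusted p = 0.00236), Trp53inp1 (-0.73, edgeR adjusted p = 0.0143), Ei24 (-0.54, edgeR adjusted p = 0.0234) and Sesn1 (-0.75, edgeR adjusted p = 0.0253). The same fit called 945 genes higher and 908 lower in KO over all genes, 1853 in place of 23, so the gain in calls was not particular to the members. The hepatocyte markers at 2D summed to 86160 to 95457 CPM in WT, below the 107298 to 125543 CPM of KO, and the part of that difference was not tested. The endothelial sums were 445.5 to 520.6 CPM in WT, above the 277.2 to 405.5 CPM of KO, and the B and T cell sums were 5.755 to 8.998 CPM in WT, below the 11.16 to 14.45 CPM of KO, and their part was not tested either. edgeR and limma-voom called 0 markers of any list between genotypes at 2D. DESeq2 called 4 hepatocyte, 1 endothelial and 1 B and T cell marker. At an unadjusted p under 0.05 by edgeR there were 5 hepatocyte markers, 2 each of the endothelial, stellate and fibroblast, and B and T cell lists, and 1 macrophage marker. Without replicate 3, 2 hepatocyte, 2 stellate and fibroblast and 2 B and T cell markers were called higher in KO, and 1 hepatocyte, 1 macrophage and 2 endothelial markers lower.

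At 4W edgeR called 2 members between genotypes, near the shares over all genes. Over all 13394 genes tested, 1.95% were higher and 4.13% lower in KO. Of 31 members tested 1 was higher (3.23%) and 1 was lower (3.23%). At an unadjusted p under 0.05 there were 6 of 31 members, where the share over all genes was 22.14%. Zfp365 was left out by the filter on low counts. Gdf15 was higher in KO, at 28.5, 33.6 and 27.2 CPM against 7.28, 9.72 and 15.04 CPM in WT, with a log2 fold change of 1.48 (SE 0.23, edgeR adjusted p = 0.00761). The lowest KO library was well above the highest WT library. Cdkn1a was lower in KO, at 36.2, 39.8 and 54.2 CPM against 70.9, 68.4 and 106 CPM in WT, with a log2 fold change of -0.92 (SE 0.20, edgeR adjusted p = 0.03). The groups do not overlap. The Cdkn1a call was lost without WT 4W replicate 3 (edgeR adjusted p = 0.0968), KO 4W replicate 1 (0.0891) or KO 4W replicate 2 (0.0888), and in the fit of all 18 libraries (0.248).

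Further members stood near the threshold at 4W. Trp53inp1 was at 88.2, 54.0 and 50.3 CPM in WT and 121, 91.9 and 138 CPM in KO (0.86, SE 0.22, edgeR adjusted p = 0.0571), and DESeq2 and limma-voom called it with adjusted p of 0.00137 and 0.0466. Gadd45a was at 3.48, 3.38 and 2.41 CPM in WT and 1.62, 1.41 and 1.49 CPM in KO (-1.04, SE 0.31, edgeR adjusted p = 0.089). Neither pair of groups overlaps. In all, 6 members were higher without overlap (19.4%, against 13.2% over all genes) and 4 were lower (12.9%, against 14.7%). Trp53 was at 0.05 (SE 0.11) and Mdm2 at -0.29 (SE 0.12), neither called. Among markers of other cells at 4W, both neutrophil markers tested were higher in KO, with summed levels of 4.11 to 8.84 CPM against 0.456 to 1.59 CPM in WT. Also called were 1 endothelial and 1 hepatocyte marker higher and 1 hepatocyte and 1 macrophage marker lower in KO, and the part of these in the member values was not tested.

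At 36W no member was called, but most stood higher in KO. edgeR called 0 of 32, where 0.0222% of 13516 genes were higher and 0.0148% lower in KO (0.0222% and 0.0074% with library size alone). At an unadjusted p under 0.05 there were 18 of 32 members, where the share over all genes was 11.96%. DESeq2 called 7 members, and 96 genes higher and 197 lower over all genes, while limma-voom called 0 members. The median member log2 fold change was 0.71, beside 0.01 over all genes, and 28 of 32 estimates were above 0. The libraries did not overlap for 19 members higher in KO (59.4%, against 8.24% of all genes) and for 2 lower in KO, Rrm2b and Xpc (6.25%, against 10.3%). All members were measured in the same 6 libraries, so the counts are not 32 independent observations.

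Sulf2 had the smallest p. It stood at 5.05, 5.83 and 6.65 CPM in WT and 13.1, 20.2 and 25.4 CPM in KO, a log2 fold change of 1.77 (SE 0.27, edgeR adjusted p = 0.139). Psrc1 was at 6.10, 11.7 and 7.85 CPM in WT and 26.8, 27.8 and 70.4 CPM in KO (2.32, SE 0.44, edgeR adjusted p = 0.186). Both genes were called by DESeq2, by edgeR without the filter on low counts and in the fit of all 18 libraries, where the adjusted p were 0.00183 for Sulf2 and 0.0149 for Psrc1. The groups do not overlap for either gene. Phlda3 was at 3.91, 10.6 and 14.4 CPM in WT and 19.3, 32.3 and 52.2 CPM in KO (1.88, SE 0.51, edgeR adjusted p = 0.302). Pmaip1 was at 0.527, 1.73 and 3.55 CPM in WT and 6.06, 6.08 and 12.3 CPM in KO (2.13, SE 0.63, edgeR adjusted p = 0.31). Gdf15 was at 8.74, 13.2 and 10.6 CPM in WT and 21.2, 18.2 and 20.9 CPM in KO (0.91, SE 0.19, edgeR adjusted p = 0.206). Their groups do not overlap. DESeq2 called these 3 together with Bbc3, Polk, Psrc1 and Sulf2, and the fit of all 18 libraries called Bax, Phlda3, Psrc1 and Sulf2.

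By role, the feedback genes stood at 0.80 (SE 0.26) for Mdm2 and 0.82 (SE 0.22) for Ccng1, with Trp53 at 31.4, 35.4 and 30.5 CPM in WT and 39.4, 37.8 and 36.2 CPM in KO (0.25, SE 0.12, edgeR adjusted p = 0.459). Among the cell death genes the estimates ran from 0.41 for Perp to 2.13 for Pmaip1, with Bax at 1.01 (SE 0.31), Bbc3 at 0.84 (SE 0.19) and Fas at 0.60 (SE 0.17). Among repair genes Zfp365 was at 0.220, 0.890 and 0.190 CPM in WT and 1.17, 1.22 and 3.94 CPM in KO, which is 3 to 18 reads against 17 to 70 reads (2.29, SE 0.77, edgeR adjusted p = 0.34). Polk stood at 0.89 (SE 0.21), Rrm2b at -0.42 (SE 0.22) and Xpc at -0.20 (SE 0.12). Cdkn1a was at 13.5, 27.8 and 51.4 CPM in WT and 45.0, 56.4 and 102 CPM in KO (1.16, SE 0.50), where the groups overlap. Dram1, Plk3, Ei24 and Ptp4a3 were closest to 0, between -0.17 and 0.14.

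The spread among the 36W libraries had a direction. KO replicate 3 was the highest of the 6 for 24 members, and WT replicate 1 the lowest for 19. Leaving out each library in turn gave 0 called members in every case. The summed level of the bile duct markers at 36W was 232.7, 558.5 and 107.1 CPM in WT and 1050, 726.5 and 1174 CPM in KO. Of these markers 0 of 7 were called by edgeR (3 at an unadjusted p under 0.05, 1 by DESeq2, 0 by limma-voom). Spp1 made up most of these sums, with means of 262.6 CPM in WT and 939.7 CPM in KO. Sox9 had means of 28.2 and 29.9 CPM. Krt19, Krt7 and Epcam had higher means in KO, at 5.39 CPM or less. The part of these markers in the member values was not tested. The hepatocyte sums of WT, 166510 to 248934 CPM, enclosed those of KO, 186286 to 217364 CPM.

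**Figure D3:**
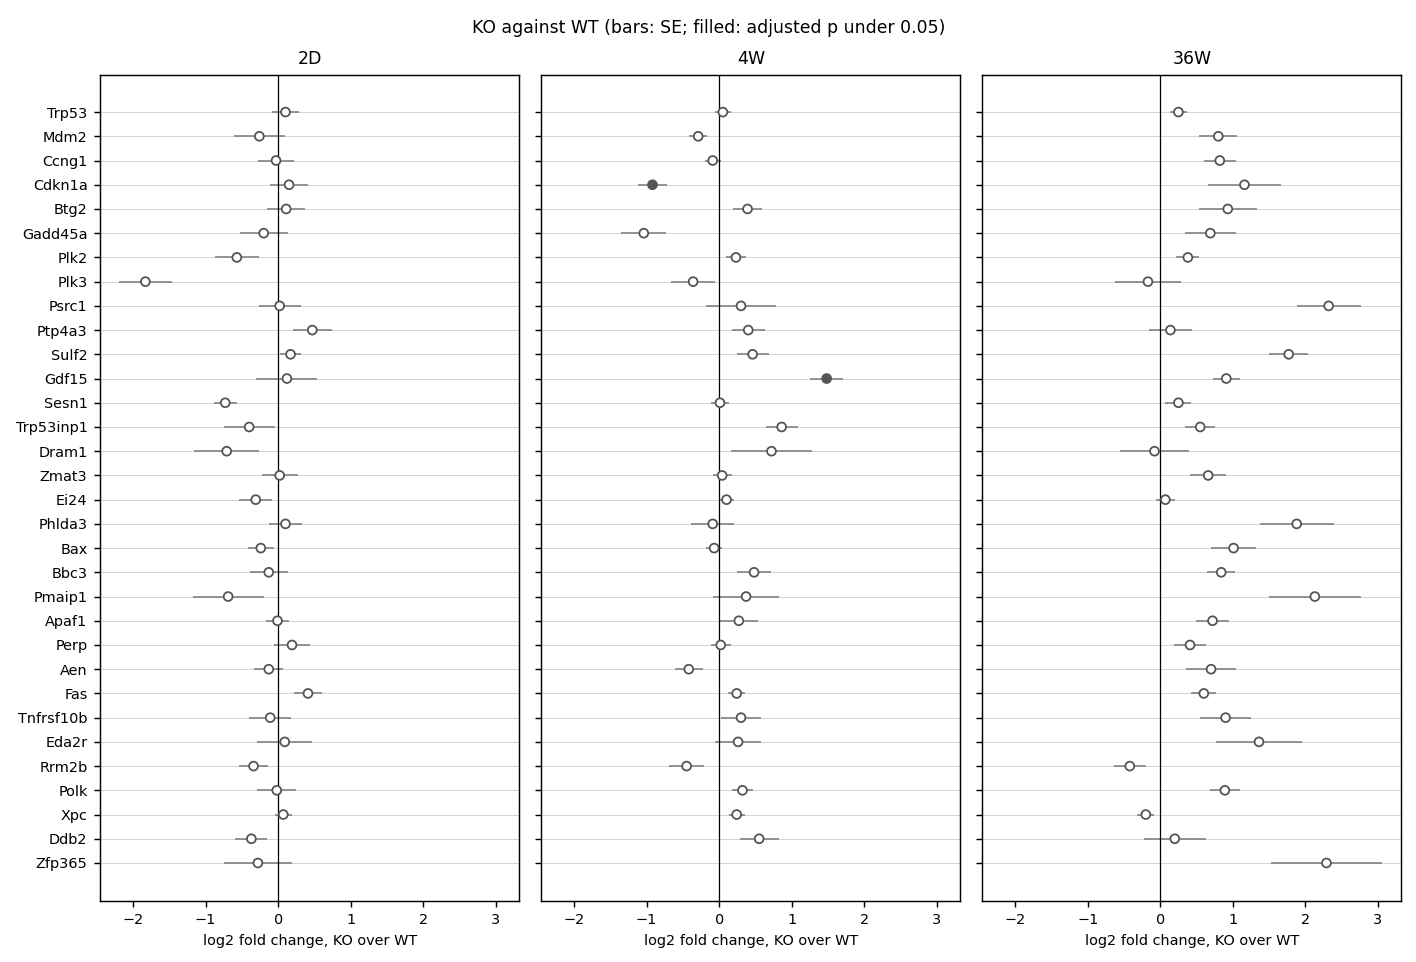
Log2 fold change of KO over WT (horizontal axis) for each of the 32 genes at 2D, 4W and 36W; points are edgeR estimates, bars are their SE, and filled points had an adjusted p under 0.05. The 2 filled points are Cdkn1a (-0.92) and Gdf15 (1.48) at 4W; at 36W 28 of 32 open points lie right of zero, and Zfp365 has no point at 4W because it was not tested.

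The difference between KO effects tests whether the genotype gap itself changed with time. Between 36W and 2D, 2 of 32 members had a KO effect that was higher at 36W and 0 a lower one, where 0.612% of 14877 genes had a higher and 2.43% a lower effect. With library size alone that split reversed, to 1.11% higher and 0.484% lower, and 3 members were higher, Bax being the third. The median difference over all genes was then 0.23 in place of 0.03, and that over the members 1.04. At an unadjusted p under 0.05 there were 16 of 32 members, where the share over all genes was 20.54%. For Sulf2 the WT and KO ranges overlap at 2D, at 65.5 to 89.1 CPM and 76.8 to 97.0 CPM, and separate at 36W. The difference of its log2 fold changes was 1.57 (SE 0.34, edgeR adjusted p = 0.0231). For Sesn1 the KO libraries were the lower at 2D, while at 36W they stood at 17.3, 15.9 and 15.2 CPM against 16.8, 11.7 and 12.7 CPM in WT, which overlap. Its difference was 0.94 (SE 0.22, edgeR adjusted p = 0.0328). DESeq2 called 6 members and limma-voom 3, where they called 1092 and 487 genes in all. Without WT 2D replicate 3 edgeR called 9 members, and 757 genes in all in place of 453. Without any of WT 2D replicate 2, KO 2D replicate 1, KO 2D replicate 2, KO 36W replicate 2 and KO 36W replicate 3 it called 0 members.

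Between 36W and 4W edgeR called 0 members, where 0.282% of genes had a higher and 0.282% a lower KO effect at 36W (0.457% and 0.0941% with library size alone). There were 11 of 32 members at an unadjusted p under 0.05, where the share over all genes was 15.99%. DESeq2 called Bax, Cdkn1a, Phlda3, Psrc1 and Sulf2, and 564 genes in all, and limma-voom called 0 members. Cdkn1a was lower in KO at 4W and had a positive estimate at 36W, and the difference of its log2 fold changes was 2.05 (SE 0.56, edgeR adjusted p = 0.0993). Between 2D and 4W edgeR called 0 members, where 1.01% of genes had a higher and 0.329% a lower KO effect at 2D (0.531% and 0.309% with library size alone). There were 5 of 32 members at an unadjusted p under 0.05, where the share over all genes was 16.36%, and DESeq2 and limma-voom called 0. The 5 were Gdf15, Plk3, Plk2, Trp53inp1 and Sesn1, with differences from -1.45 to -0.73. Trp53inp1 and Ei24 were called without WT 2D replicate 3, with edgeR adjusted p of 0.0206 and 0.0485. Over all genes, that fit called 342 higher and 189 lower.

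The comparison of 36W with 4W follows the genes into the period in which DEN tumours grow. In WT, 4 members were higher and 4 were lower, where 11.9% of all genes were called higher and 9.13% lower. With library size alone 2 members were higher and 4 lower, where the shares of all genes were 8.55% and 11.7%. In KO, 12 were higher (37.5%) and 4 were lower (12.5%), where 14.5% of all genes were called higher and 15.3% lower. The member median was 0.07 in WT and 0.55 in KO, beside 0.01 and -0.02 over all genes. The difference between genotypes is the one tested above between 36W and 4W, in which edgeR called 0 members.

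Btg2, Psrc1 and Tnfrsf10b rose in both genotypes. Tnfrsf10b was at 4.22, 12.1 and 8.55 CPM at WT 36W (1.61, SE 0.34, edgeR adjusted p = 0.00288) and at 15.6, 12.9 and 17.0 CPM at KO 36W (2.19, SE 0.33, edgeR adjusted p = 0.00016). Btg2 was at 30.4, 89.9 and 85.5 CPM at WT 36W (1.41, SE 0.35) and at 92.6, 141 and 153 CPM at KO 36W (1.92, SE 0.36). Both KO groups lay above the KO 4W libraries given above, while WT replicate 1 lay within the WT 4W range of Btg2. Psrc1 rose by 1.43 (SE 0.48, edgeR adjusted p = 0.0455) in WT and by 3.41 (SE 0.49, edgeR adjusted p = 9.89e-05) in KO. Dram1 rose in WT to 7.64, 3.46 and 2.47 CPM (1.71, SE 0.58, edgeR adjusted p = 0.0483) and had 0.87 (SE 0.57) in KO. The WT calls were weak: those of Dram1 and Psrc1 were lost in 12 and 8 of the 18 fits that left out a library (edgeR adjusted p up to 0.216 and 0.18), and that of Btg2 without WT 4W replicate 2 (0.0526).

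In KO the further members called higher were Mdm2, Gadd45a, Zmat3, Phlda3, Bax, Pmaip1, Apaf1, Aen and Zfp365. Gadd45a was at 5.92, 6.72 and 13.9 CPM at KO 36W against 1.41 to 1.62 CPM at KO 4W (2.55, SE 0.34, edgeR adjusted p = 5.98e-05). Its WT libraries at 36W were at 5.01, 5.34 and 6.46 CPM (0.85, SE 0.32, edgeR adjusted p = 0.0705). Zfp365 rose by 3.16 (SE 0.86), Pmaip1 by 2.02 (SE 0.60), Phlda3 by 1.98 (SE 0.43) and Bax by 1.15 (SE 0.24). Bax stood at 37.1, 55.2 and 74.8 CPM at KO 36W and 23.7, 24.9 and 26.6 CPM at KO 4W, with no overlap. Mdm2 rose by 1.13 (SE 0.30), Aen by 1.02 (SE 0.29), Apaf1 by 0.92 (SE 0.23) and Zmat3 by 0.75 (SE 0.24). Without KO 36W replicate 3 the KO comparison called 11 members in place of 16, and the calls lost were Mdm2, Zmat3, Aen, Pmaip1 and Zfp365 (edgeR adjusted p from 0.0699 to 0.104). Aen, Pmaip1 and Zmat3 were also lost without KO 4W replicate 1, and Pmaip1 and Zmat3 without KO 4W replicate 3 (0.061 to 0.0859).

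Sulf2, Fas and Ei24 fell in both genotypes. Sulf2 fell from 24.01, 29.9 and 23.1 CPM at WT 4W to 5.05, 5.83 and 6.65 CPM at WT 36W (-2.14, SE 0.25, edgeR adjusted p = 4.15e-05). In KO it fell from 28.5, 28.9 and 49.1 CPM to 13.1, 20.2 and 25.4 CPM (-0.86, SE 0.23, edgeR adjusted p = 0.011). The 36W libraries lay below all 4W libraries in both genotypes. The KO call was lost without KO 4W replicate 3 (edgeR adjusted p = 0.0836) or KO 36W replicate 1 (0.0505). Fas went from 19.1, 21.9 and 19.01 CPM to 10.2, 8.203 and 10.1 CPM in WT (-1.07, SE 0.16) and had -0.75 (SE 0.16) in KO. Ei24 went from 195, 187 and 167 CPM to 110.0, 114 and 118 CPM in WT (-0.68, SE 0.17) and had -0.74 (SE 0.17) in KO. Cdkn1a fell in WT to 13.5, 27.8 and 51.4 CPM (-1.41, SE 0.40, edgeR adjusted p = 0.0199), a call lost without WT 4W replicate 3 (0.0845), WT 36W replicate 1 (0.0549) or WT 36W replicate 2 (0.0697). Its KO value was 0.64 (SE 0.40) and not called. Xpc fell in KO by 0.39 on the log2 scale (SE 0.10).

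Cell markers moved between 36W and 4W as well. In each genotype, 3 hepatocyte markers rose and 2 fell, 1 stellate and fibroblast marker rose and 2 fell, 2 macrophage markers fell and 1 erythroid marker fell. Of bile duct markers 1 rose in WT and 2 in KO, of endothelial markers 2 in WT and 1 in KO, and of neutrophil markers 2 in WT. In WT 1 B and T cell marker rose. The part of these cells in the member changes was not tested.

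**Figure D4:**
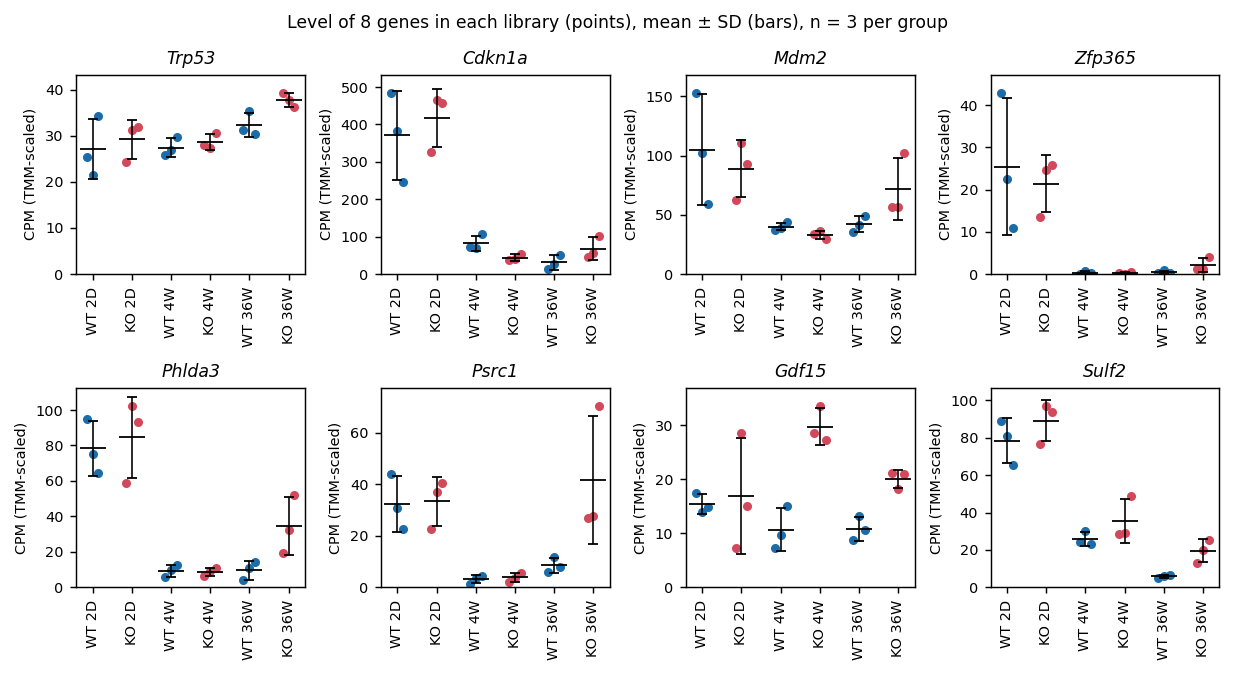
TMM-scaled CPM (vertical axis, from 0) of 8 genes in every library, WT in blue and KO in red, with the mean and SD of each group of 3 as bars. Cdkn1a, Mdm2, Zfp365 and Phlda3 are high at 2D in both genotypes, Trp53 shows no such peak, Gdf15 is highest at KO 4W, and Sulf2 and Psrc1 separate KO from WT at 36W.

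Per kilobase, the order of the members changed with time. The 4 highest mean levels were 194.2 CPM per kb for Cdkn1a, 137.1 for Ei24, 80.8 for Bax and 79.8 for Perp at WT 2D. At WT 4W they were 79.3 CPM per kb for Ei24, 56.6 for Perp, 42.9 for Cdkn1a and 30.2 for Bax. At KO 36W, Perp (64.2 CPM per kb), Bax (64.1), Ei24 (51.1) and Btg2 (46.9) led, and Cdkn1a was at 35.5 CPM per kb. Rrm2b and Dram1 were the 2 lowest in both 2D groups, between 0.888 and 2.17 CPM per kb. These levels used the deposited gene lengths and carry no test. In the deposited coordinates, build mm10 per the submitters' processing notes, Trp53 lies at chr11:69580359-69591873, Cdkn1a at chr17:29090979-29100722, Zfp365 at chr10:67886103-67912662, Gdf15 at chr8:70629393-70632456, Sulf2 at chr2:166073089-166155663 and Sesn1 at chr10:41810574-41908424. Strand was not stated, and exons of Ddb2 share 23.8% of their length with Acp2 on the other strand and those of Gadd45a 19.1% with the processed transcript E230016M11Rik on the other strand, so the counts of these 2 members may include reads of the neighbour. For Bax 12.2% of the exon length is shared with another gene on the same strand, and for Rrm2b, Cdkn1a, Ei24, Plk3 and Sulf2 the share was 2.62% to 8.04%.

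Other genes of the pathway were followed as lists. Of 35 other p53 targets 34 were tested between 2D and 4W. In WT 14 rose and 5 fell, where 18.6% of all genes rose and 19.1% fell. In KO 11 rose and 4 fell, where the shares of all genes were 10.8% and 13.5%. Their median log2 fold change was 0.27 in WT and 0.35 in KO, beside 0.05 and -0.02 over all genes. Sesn2, a sestrin, rose from 10.9 ± 2.49 to 38.0 ± 7.98 CPM (SD, n = 3) in WT (1.80, SE 0.21) and by 1.24 (SE 0.21) in KO. Gadd45b, a relative of Gadd45a, rose by 2.87 (SE 0.40) in WT. The tetraspanin gene Cd82 fell by 0.85 on the log2 scale (SE 0.10) in WT and had -0.95 (SE 0.10) in KO, and Ndrg1 had -2.36 (SE 0.38) in KO. Between 36W and 4W, 6 targets rose and 5 fell in WT, where 11.9% of all genes rose and 9.13% fell. In KO 7 rose and 5 fell, where the shares of all genes were 14.5% and 15.3%. Prkab1, a subunit of the energy sensor AMPK, rose by 1.13 (SE 0.16) in WT and 1.24 (SE 0.16) in KO. Steap3, a metalloreductase of iron uptake, had -1.19 (SE 0.17) and -1.32 (SE 0.17).

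Between genotypes edgeR called 0 of these targets at 2D, 4W and 36W. At an unadjusted p under 0.05 there were 6 of 34, 9 of 33 and 9 of 33. The shares over all genes were 16.07%, 22.14% and 11.96%. DESeq2 called 4, 3 and 3, and limma-voom 0, 1 and 0. Without WT 2D replicate 3 edgeR called 7 at 2D, 4 higher and 3 lower in KO, where 945 genes were higher and 908 lower over all genes. Of the KO effects at 36W against 2D, that of Pidd1, an adaptor of the DNA damage response, was higher by 2.02 (SE 0.50, edgeR adjusted p = 0.0418) and that of Tsc2, a brake on mTORC1, was -0.66 (SE 0.17, edgeR adjusted p = 0.0439).

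Of 16 p53 regulators 13 were tested between 2D and 4W. In WT 4 rose and 2 fell, where 18.6% of all genes rose and 19.1% fell. In KO 3 rose and 1 fell, where the shares of all genes were 10.8% and 13.5%. Atr, a kinase of replication stress, rose by 0.97 (SE 0.16) in WT. Ppm1d, a phosphatase that switches the p53 response off, rose from 6.77 ± 1.40 to 12.9 ± 1.91 CPM (SD, n = 3) in WT (0.93, SE 0.21) and by 0.92 (SE 0.21) in KO. Atm, the kinase of double-strand breaks, had -0.70 (SE 0.16) and -0.92 (SE 0.16), and the checkpoint kinase gene Chek1 rose by 2.29 (SE 0.40) in KO. Between 36W and 4W, 1 regulator rose and 1 fell in WT, where 11.9% of all genes rose and 9.13% fell. In KO 2 rose and 4 fell, where the shares of all genes were 14.5% and 15.3%. Cdkn2a, which encodes p16 and the MDM2 inhibitor ARF, was at 0.0511 to 0.217 CPM at WT 4W and 1.19 to 8.42 CPM at WT 36W, and at 0.0574 to 0.499 CPM at KO 4W and 6.34 to 41.4 CPM at KO 36W. The groups do not overlap, and the log2 fold changes of 5.02 (SE 1.04) and 6.44 (SE 1.00) start from counts near the floor. Wrap53, which overlaps Trp53 in antisense in human, had -0.64 (SE 0.20) and -0.81 (SE 0.20). Between genotypes edgeR called 0 regulators at 2D, 4W and 36W. At an unadjusted p under 0.05 there were 3 of 12, 2 of 12 and 2 of 13. The shares over all genes were 16.07%, 22.14% and 11.96%. DESeq2 called 2, 0 and 0, and limma-voom 0. Without WT 2D replicate 3 edgeR called 4 at 2D, of which 2 were higher and 2 lower in KO, where 945 genes were higher and 908 lower over all genes. The KO effect on Atm at 36W minus that at 4W was -1.06 (SE 0.23, edgeR adjusted p = 0.0482).

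Of 24 cell cycle genes that p21 is known to repress through the DREAM complex, 10 rose at 2D in WT and 19 in KO. In both genotypes 0 fell. Of all genes 18.6% rose in WT and 10.8% in KO. The list had a median log2 fold change of 1.36 and 2.08, beside 0.05 and -0.02 over all genes. DESeq2 called 14 in WT and 20 in KO, and limma-voom 18 and 23. Without WT 2D replicate 3 the WT number was 4, and with other libraries left out the KO number ran from 11 to 24. Rrm2, a ribonucleotide reductase subunit of S phase, rose from 18.9 ± 5.66 to 58.7 ± 5.43 CPM (SD, n = 3) in WT (1.64, SE 0.27) and from 6.26 ± 1.29 to 46.3 ± 5.52 CPM in KO (2.88, SE 0.29). The replication helicase gene Mcm5 rose by 1.41 (SE 0.32) and 1.88 (SE 0.33), and Ccne2, a cyclin of S phase entry, by 1.22 (SE 0.29) and 2.12 (SE 0.30). The 2D groups were also those with the highest Cdkn1a levels, and a link between Cdkn1a and these genes was not tested. Between genotypes edgeR called 0 of the 24 genes at 2D (1 at an unadjusted p under 0.05) and 0 at 36W (0 at an unadjusted p under 0.05), and DESeq2 and limma-voom called 0 at both times. Without WT 2D replicate 3, 2 were called higher in KO at 2D, where 945 genes were higher and 908 lower over all genes. At 4W the list had a median of -0.71 between KO and WT, beside 0.01 over all genes. Of the list 1 gene was called, Rrm2, which was lower in KO (-1.60, SE 0.24, edgeR adjusted p = 0.00666), where 4.13% of all genes were lower. Cdkn1a was also lower in KO at that time, and a link was not tested there either. Between 36W and 4W, 1 gene of the list rose in KO, again Rrm2 (0.92, SE 0.28), where 14.5% of all genes rose. With a library left out the KO number ran from 0 to 9. In WT 0 changed by edgeR, by DESeq2, by limma-voom or at an unadjusted p under 0.05.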

How the data were processed

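RNA sequencing counts of 18 mouse liver libraries were used. The authors deposited whole-number read counts per gene with no normalisation applied, as the values show. STAR 2.5, HTSeq, DESeq2 and mm10 appear in the submitters' processing notes, which state no role for any of them, and the strand is not given in the sources used here. Members were matched by the gene name in the table.

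KO was compared with WT in edgeR 4.0.16 (TMM scaling, filterByExpr, quasi-likelihood F test) on the 6 libraries of a time. Times, and differences of the KO effect, were compared in 1 fit of all 18 libraries with 6 group means. Adjustment was by Benjamini-Hochberg over all genes tested, with a threshold of 0.05. With 3 libraries a group, the smallest two-sided p of an exact permutation test is 0.1, so none was used. The pipeline was tested on simulated data. Of 100 simulated 2-fold changes between KO and WT it recovered 38 at 2D, 62 at 4W and 16 at 36W. For the KO effect at 36W minus that at 2D it recovered 17. A member that was not called may therefore still differ. The simulated data also held 100 4-fold changes, of which 85, 87 and 82 were recovered between KO and WT. Of all simulated calls between KO and WT, 8.21%, 4.49% and 8.41% were of unchanged genes. Genes were simulated independently, and no library was made to stand apart as WT 2D replicate 3 did. These shares may therefore not hold for the real calls. The members and lists were chosen with earlier results of these data known.

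All members are accounted for. Every library's value is given for members called between genotypes or in a difference of KO effects and for those with the 8 largest changes of each time comparison, and of the 3 lists of p53 and cell cycle genes, the up to 3 called genes with the smallest p per comparison are named, except 2 that are not reported here; values of other members were added after they were seen. Alternatives were DESeq2 1.42.0, limma 3.58.1 voom, DESeq2 size factors, library size alone, no filter on low counts, a filter of 1 CPM in 3 samples, replicate number as a block, other sets of libraries in the fit, and leaving out each library. Lists of the markers of 8 cell types were summed in TMM-scaled CPM. They are given mostly by counts and sums, with a few single genes named, and the bile duct markers Cldn7 and Muc1 are not given singly. Tf, Adgre1, Jchain, Epb42 and Ahsp are not used here.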

Additional observations from a re-analysis of the deposited data

Results flagged for a closer look

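The KO effect on Sulf2, an enzyme that edits heparan sulfate, differed between times: its log2 fold change of KO over WT was higher at 36W than at 2D by 1.57 (SE 0.34, edgeR adjusted p = 0.0231). The KO effect on Sesn1, a restraint of mTORC1, was likewise higher at 36W than at 2D, by 0.94 (SE 0.22, edgeR adjusted p = 0.0328). Both are marked because the difference between the KO effects was itself tested and passed the threshold. Of the 18 fits that left out a library, 7 lost the Sulf2 call (edgeR adjusted p up to 0.0691) and 6 the Sesn1 call (up to 0.0862). All of these losses came from leaving out a library of 2D or 36W, the times this difference compares. The Sesn1 call was also lost without the filter on low counts (edgeR adjusted p = 0.0516), where Psrc1 was called in its place.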

How the results depend on the processing

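No called member changed direction under any alternative tried. The 75 called member values were each refitted under the alternatives: 1835 of these refits kept the call and 89 lost it. For times and differences of KO effects, many of these refits left out a library of a group not compared. The number kept is therefore no measure of how stable the calls were. Members that gained a call are in the counts below. The number of members called moved as follows. KO against WT at 2D went from 0 to 2 with DESeq2, 1 in the fit of all 18 libraries, and 0 to 4 with a library left out. At 4W it went from 2 to 1 in the fit of all 18 libraries and 1 to 3 with a library left out. At 36W it went from 0 to 7 with DESeq2, 2 without the low-count filter and 4 in the fit of all 18 libraries, and stayed 0 with a library left out. For 36W against 4W it went from 8 to 5 with limma-voom and 4 in the fit of the 6 libraries alone in WT, and to 5 to 9 with a library left out (5 without WT 4W replicate 2 or WT 36W replicate 2); in KO it was 11 to 19, from 16. For 2D against 4W leaving out a library gave 22 to 24 in WT and 20 to 24 in KO. For the KO effect DESeq2 gave 5 members at 36W minus 4W and 6 at 36W minus 2D. Leaving out a library gave 0 to 2 members at 2D minus 4W, 0 to 2 at 36W minus 4W and 0 to 9 at 36W minus 2D.

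Over all genes, KO against WT called 23 at 2D (757 with DESeq2, 7 with limma-voom, 84 without the filter, 101 in the fit of all 18 libraries, 1853 without WT 2D replicate 3 and 1 to 5 without another library), 814 at 4W (1273 with DESeq2, 439 in the fit of all 18) and 5 at 36W (293 with DESeq2, 47 without the filter, 401 in the fit of all 18). WT at 36W against 4W called 3131, and 1864 in the fit of the 6 libraries alone. The KO effect differed between 2D and 4W at 199 genes (621 with DESeq2, 125 with library size alone), between 36W and 4W at 84 (564 with DESeq2), and between 36W and 2D at 453 (1092 with DESeq2, 237 with library size alone). Leaving out a library gave 360 (without WT 4W replicate 2) to 823 genes for KO against WT at 4W, 0 to 36 (without WT 36W replicate 2) at 36W, and 82 to 531, 9 to 351 and 104 to 757 for these differences in turn. For times it gave 4389 to 5843 (from 5606) and 2178 to 3983 (from 3605) at 2D in WT and KO, and 2232 to 3606 and 3209 to 4825 (from 4436) at 36W. The cause of these moves was not tested.

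Replicate numbers did not pair the samples: same-numbered libraries of WT and KO deviated together with correlations from -0.0665 to 0.23. With replicate number as a block the KO effect at 36W minus 2D called 5 members in place of 2, and KO against WT over all genes called 13 at 2D and 0 at 36W, and 142 at 36W minus 4W. Counts at 4W near the floor limit the size of the Zfp365 change.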
